A study of Arabidopsis thaliana with 15 samples.

Results

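The B-box group IV genes of Arabidopsis thaliana encode transcription factors and cofactors that carry a pair of B-box zinc fingers and no CCT domain. The members described here are BBX18, BBX19, BBX20, BBX21, BBX22, BBX24 and BBX25, taken by locus identifier from the count table, which gives 7 of its 33602 genes. All 7 had enough reads to be tested, among 20833 genes that did. By structure BBX23 (AT4G10240) also belongs to the group, but it is not a member here, and it had 1 read in 1 of the 15 libraries.

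Whole seedlings of the Col-0 background, 4 days old, were sampled as pools of 30 after growth in continuous low white light on sucrose-containing medium. The 5 groups of 3 libraries were uvr8-6 with 6 h of added narrowband UV-B, wild type with 6 h of UV-B, pif4-101 pif5-1 in white light, uvr8-6 in white light and wild type in white light. The white-light seedlings stood behind a filter that removes UV-B, and pif4-101 pif5-1 was not sampled under UV-B. Each mutant is represented by 1 line, and replicates came from separate plates according to the series design.

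B-box proteins of this group act largely through HY5, the bZIP factor that drives seedling development in light, and they are marked for destruction in darkness by the COP1 and SPA ubiquitin ligase. BBX20, BBX21 and BBX22 promote light development together with HY5, whereas BBX24 and BBX25 interfere with HY5 activity, and BBX18 and BBX19 favour hypocotyl growth. UV-B is perceived by UVR8, which then binds COP1, and BBX24 is known as a repressor of UV-B photomorphogenesis.

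The libraries held between 19271180 and 30406689 counted reads. UVR8 stood at 15.4 ± 0.49 CPM (counts scaled to library size by TMM; SD, n = 3) in uvr8-6 and 89.9 ± 7.4 CPM in wild type under UV-B, and at 17.0 ± 2.8 CPM in uvr8-6 and 99.0 ± 14.1 CPM in wild type in white light. PIF5 had 4.65, 4.91 and 5.45 CPM in pif4-101 pif5-1, against 111.7, 77.1 and 136.1 CPM in wild type in white light. PIF4 did not separate the same groups, with 82.8, 79.4 and 99.9 CPM in pif4-101 pif5-1 and 149.3, 62.1 and 168.3 CPM in wild type; reads were counted along the gene as a whole, which is no check of that allele. All 4 cotyledon markers and all 4 root markers were read in every group. Libraries within groups differed, and 5 of them had FRO5, a gene of the ferric reductase family, at 20.8 to 78.6 CPM, against at most 1.2 CPM in the other 10. These were replicates 1 and 3 of uvr8-6 and replicate 1 of wild type under UV-B, and replicate 2 of uvr8-6 and of wild type in white light.

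The first 120 coding bases of each member are shown to let the shared zinc finger be seen in the genes themselves. They are read from RefSeq's TAIR10.1 genome, 5′ to 3′ from the start codon, with in-frame cysteine codons in capitals, and in BBX18 and BBX19 an intron has been removed. Where a gene has several annotated transcripts, the form with the longest coding sequence was taken. BBX19 has 6 annotated transcripts, and its other forms were not compared.
BBX18: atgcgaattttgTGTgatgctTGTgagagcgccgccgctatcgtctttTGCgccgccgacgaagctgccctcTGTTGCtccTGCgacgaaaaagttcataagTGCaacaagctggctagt
BBX19: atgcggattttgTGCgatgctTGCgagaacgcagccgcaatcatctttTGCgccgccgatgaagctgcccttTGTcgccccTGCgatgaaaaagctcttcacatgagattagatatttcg
BBX20: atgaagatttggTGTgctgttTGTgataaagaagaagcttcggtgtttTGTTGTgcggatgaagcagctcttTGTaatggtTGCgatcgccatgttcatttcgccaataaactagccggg
BBX21: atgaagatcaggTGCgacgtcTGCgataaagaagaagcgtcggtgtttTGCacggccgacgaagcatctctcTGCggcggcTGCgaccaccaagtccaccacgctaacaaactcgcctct
BBX22: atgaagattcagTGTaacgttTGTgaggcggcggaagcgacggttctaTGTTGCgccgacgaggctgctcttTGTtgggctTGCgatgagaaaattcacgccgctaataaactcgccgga
BBX24: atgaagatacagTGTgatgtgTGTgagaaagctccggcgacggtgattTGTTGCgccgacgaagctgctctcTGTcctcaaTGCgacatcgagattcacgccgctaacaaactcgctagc
BBX25: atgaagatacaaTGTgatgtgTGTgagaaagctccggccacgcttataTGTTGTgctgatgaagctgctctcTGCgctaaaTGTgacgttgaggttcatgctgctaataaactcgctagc

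Cysteine codons stood at positions 5, 8, 17, 25 and 28, counted from the start codon, in 7 of 7 members. In the coding forms shown, a cysteine codon at position 18 was found in BBX20, BBX22, BBX24 and BBX25, and ones at 26 and 35 in BBX18. Whether other BBX19 forms have these codons was not read. BBX24 and BBX25 were the closest pair, with 102 of these 120 bases identical (85.0%). BBX18 with BBX19 and BBX22 with BBX24 followed, each with 88 identical bases (73.3%), and BBX19 and BBX25 shared the fewest, 59 (49.2%). Bases were compared position by position without gaps, so the BBX19 values hold only for the coding form shown. Over whole exons no window of 100 bases, the length of a read, recurred anywhere in the genome for any of the 7 genes.

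On TAIR10.1, whose nuclear chromosomes carry the names used for the authors' build TAIR10, the members lie on chromosomes 1, 2 and 4. BBX24 (AT1G06040, also STO) spans chr1:1828340-1829983 on the minus strand, and 267 of its 1475 exon bases overlap exons of the plus-strand gene AT1G06045, which has no row in the count table. BBX25 (AT2G31380, also STH) spans chr2:13381767-13383470 on the plus strand, and 48 of its 1268 exon bases overlap the minus-strand gene AT2G31390. BBX22 (AT1G78600, also LZF1) lies at chr1:29566863-29568931, BBX21 (AT1G75540) at chr1:28365824-28367738 and BBX18 (AT2G21320) at chr2:9126263-9127987, all on the plus strand with no overlapping gene. BBX19 (AT4G38960, plus strand) and BBX20 (AT4G39070, also BZS1, minus strand) lie close together at chr4:18160903-18163341 and chr4:18204631-18206684.

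The response to UV-B in wild type came first. BBX18, BBX22, BBX24 and BBX25 rose, BBX21 fell, and BBX19 and BBX20 did not pass the test. EdgeR's quasi-likelihood test thus called 4 members higher and 1 lower among 7, where 27.4% of all tested genes were called, 16.1% higher and 11.3% lower. The libraries of 5 members did not overlap between the treatments, as was so for 42.4% of all tested genes. The median log2 fold change of the 7 genes was 0.74, against -0.008 over all tested genes. The members were chosen with earlier results of these data known, so these counts describe them and are no independent evidence.

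BBX22, which promotes light development with HY5, changed most. It had 67.0, 86.8 and 71.2 CPM in the 3 wild-type UV-B libraries, against 26.4, 18.2 and 28.9 CPM in wild type in white light. All UV-B libraries lay far above all white-light libraries. The log2 fold change was 1.61 ± 0.16 (SE), which is 3.05-fold (edgeR, adjusted p = 3.4e-06).

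The repressor gene BBX25 had 141.7, 140.7 and 141.7 CPM under UV-B and 71.7, 69.2 and 70.2 CPM in white light. Both groups were tight, with a coefficient of variation of 0.407% under UV-B and 1.73% in white light, and they lay far apart. Its log2 fold change was 1.01 ± 0.10 (edgeR, adjusted p = 3.11e-06).

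BBX24, its closest relative and the most abundant member, had 294.4, 358.0 and 386.6 CPM under UV-B and 236.0, 155.1 and 230.2 CPM in white light. The groups did not overlap, although white-light replicate 2 stood well below the other 2. The change was smaller than that of BBX25, at 0.74 ± 0.19 on the log2 scale (adjusted p = 0.00992), and the difference between these genes was not tested.

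BBX18, which favours hypocotyl growth, had 12.9, 18.6 and 16.6 CPM under UV-B against 8.92, 5.74 and 7.46 CPM in white light. All UV-B libraries lay above all white-light ones, and the log2 fold change was 1.12 ± 0.23 (adjusted p = 0.0024).

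BBX21 moved the other way. This activator gene, whose product binds the HY5 promoter, had 78.3, 87.9 and 81.2 CPM under UV-B and 122.8, 111.0 and 126.7 CPM in white light. The groups did not overlap, and the log2 fold change was -0.54 ± 0.14 (adjusted p = 0.00815).

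**Figure D1:**
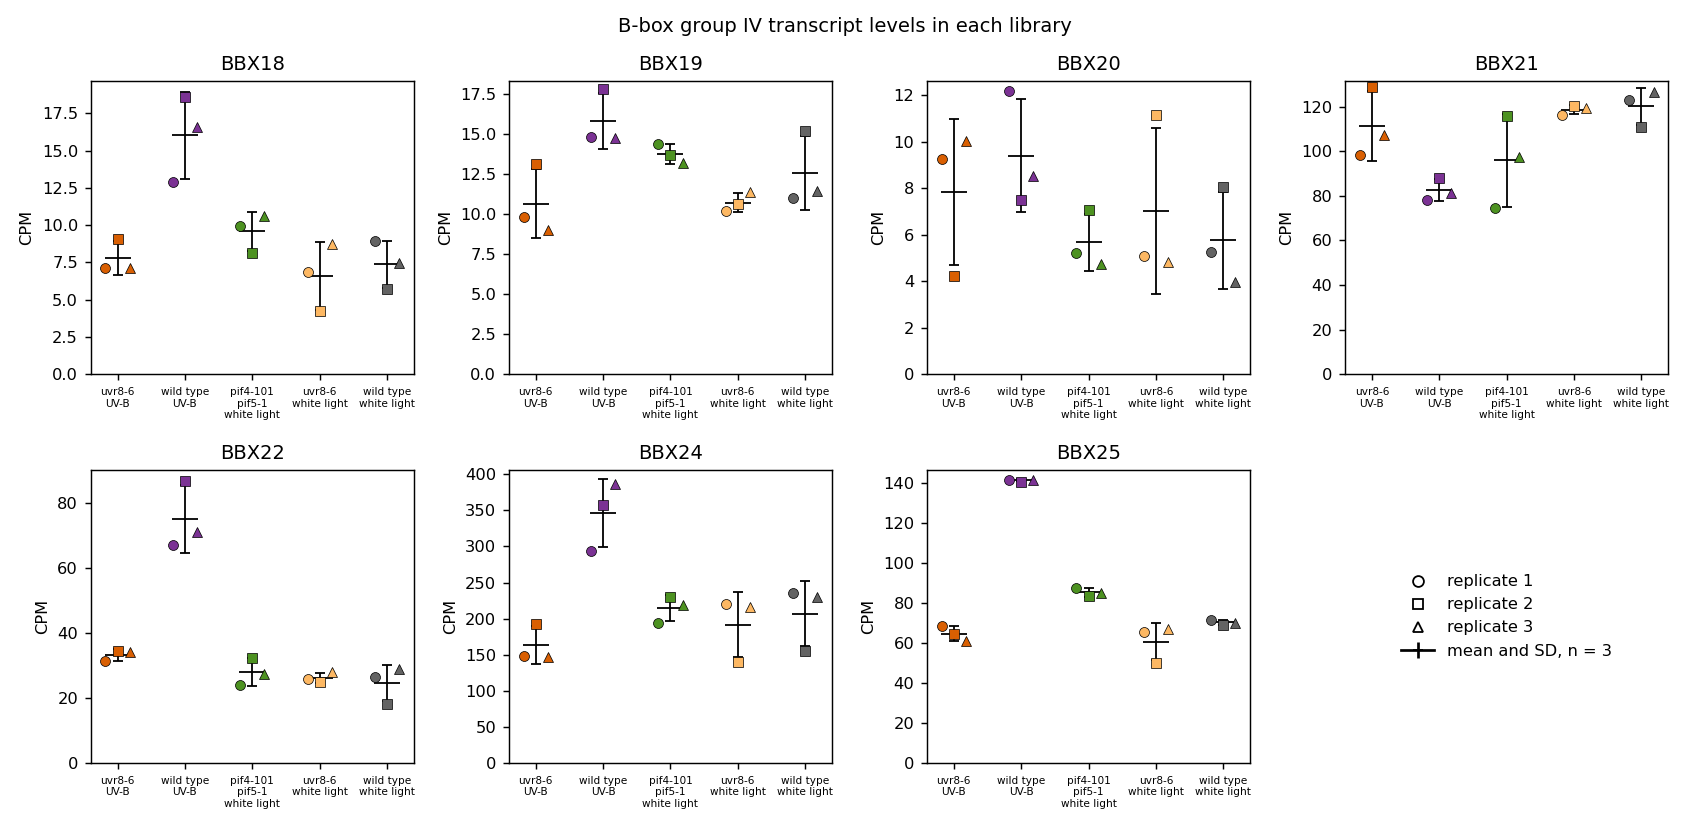
Transcript level of each member in every library, in CPM on axes that start at 0. Symbols are the 3 replicates of a group, and bars are the mean and SD. In wild type the UV-B libraries stand apart from the white-light libraries for BBX18, BBX21, BBX22, BBX24 and BBX25, with BBX21 lower under UV-B, while BBX19 and BBX20 overlap.

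BBX19, which delays flowering through CONSTANS, had 14.8, 17.9 and 14.8 CPM in wild type under UV-B and 11, 15.2 and 11.5 CPM in white light. White-light replicate 2 was within the UV-B range, and the log2 fold change was 0.33 ± 0.15 (adjusted p = 0.114). Without that library the value was 0.47 and the call was made (edgeR, adjusted p = 0.0319). Over single left-out libraries the BBX19 value ranged from 0.24 to 0.47, and leaving out any other library gave no call. BBX20, a brassinosteroid-repressed gene of the activating branch, had 12.2, 7.52 and 8.54 CPM under UV-B and 5.27, 8.04 and 3.97 CPM in white light. Again white-light replicate 2 lay inside the UV-B range, and the log2 fold change was 0.72 ± 0.38 (adjusted p = 0.176).

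Tissue markers moved with UV-B in wild type too. The summed level of the 4 root markers was 101 to 202 CPM in wild type under UV-B and 284 to 380 CPM in white light, with no overlap. Most of that sum was TIP2;3, at 97.4 CPM on average under UV-B and 274 CPM in white light, which fell (-1.49 ± 0.29, adjusted p = 0.00144), while PIN2 (-0.27 ± 0.33), COBL9 (-0.35 ± 0.23) and EXPA7 (-0.005 ± 0.33) were not called and overlapped. The 4 cotyledon markers summed to 33530 to 49620 CPM under UV-B and 27630 to 37950 CPM in white light, and these ranges overlapped. Of them RCA (1.68 ± 0.22, adjusted p = 5.31e-05) and RBCS1A (0.94 ± 0.25, adjusted p = 0.011) rose, LHCB2.1 (0.53 ± 0.23) was not called although its libraries did not overlap, and CAB1 (-0.21 ± 0.29), which makes up most of the sum, overlapped. Fewer cells of a type and less RNA per cell cannot be told apart in whole seedlings, and the part of tissue makeup in the B-box values was not tested.

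In uvr8-6 edgeR called 0 of the 7 members under UV-B, where 1.12% of all tested genes were called. DESeq2 and limma-voom also made 0 calls. Before adjustment 1 member had p under 0.05, against 13.1% of all genes. BBX22 was that gene, with 31.3, 34.4 and 34.1 CPM under UV-B and 26.0, 24.8 and 27.9 CPM in white light. Those libraries did not overlap, as was so for 19.0% of all tested genes, and the log2 fold change was 0.34 ± 0.15 (adjusted p = 0.363). BBX25 had 68.6, 64.4 and 60.9 CPM in uvr8-6 under UV-B and 65.4, 49.9 and 67.0 CPM in white light, a log2 difference of 0.09 ± 0.10. BBX24 had 148.9, 193.3 and 147.4 CPM under UV-B and 219.7, 139.9 and 215.7 CPM in white light, a log2 difference of -0.23 ± 0.19. In both genes the groups overlapped.

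The other members overlapped in uvr8-6 as well. BBX18 had a log2 difference of 0.24 ± 0.24, BBX21 one of -0.09 ± 0.14 and BBX20 one of 0.15 ± 0.37. BBX19 stood at 10.7 ± 2.2 CPM under UV-B and 10.7 ± 0.6 CPM in white light (SD, n = 3 each). The standard error was largest for BBX20.

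**Figure D2:**
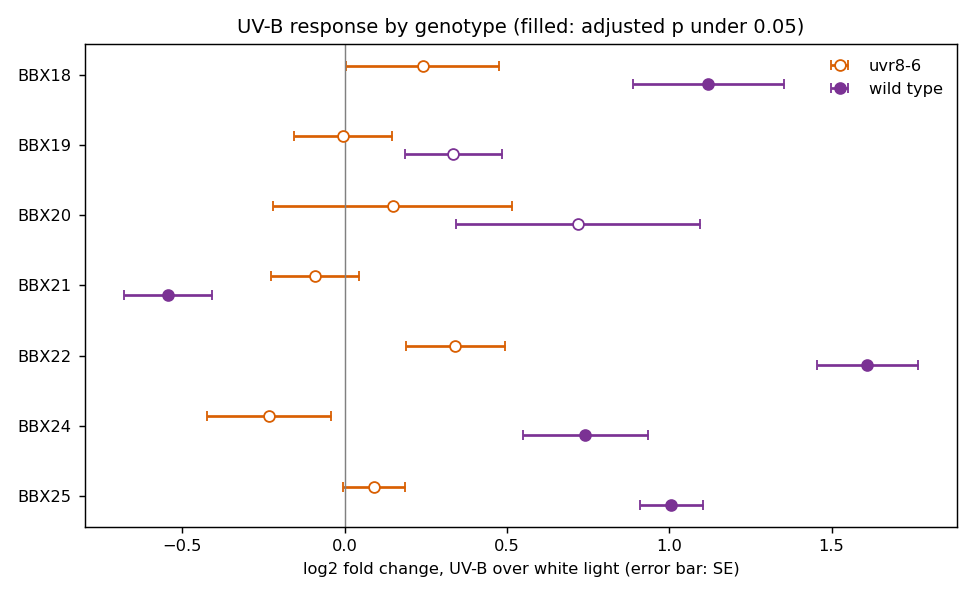
Log2 fold change of UV-B over white light for each member, in uvr8-6 (upper point of each pair) and wild type (lower point), with the standard error. Filled points were called at an adjusted p under 0.05. The 5 called values are all of wild type, between -0.54 for BBX21 and 1.61 for BBX22, and the uvr8-6 values lie between -0.23 and 0.34.

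Whether the response depends on UVR8 was tested as the difference of the responses in uvr8-6 and wild type. EdgeR called 3 members, all with a lower response in uvr8-6, where 6.60% of all tested genes were called, 4.88% lower and 1.72% higher. The response of BBX22 differed by -1.27 ± 0.22 on the log2 scale (SE, adjusted p = 0.00235), that of BBX24 by -0.97 ± 0.27 (adjusted p = 0.045) and that of BBX25 by -0.92 ± 0.14 (adjusted p = 0.000829). BBX18 had a difference of similar size with a larger error, -0.88 ± 0.33 (adjusted p = 0.143). The response of BBX21 was less negative in uvr8-6, by 0.45 ± 0.19 (adjusted p = 0.196), and BBX19 (-0.34 ± 0.21) and BBX20 (-0.57 ± 0.53) were not called.

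The calls for BBX22 and BBX25 held in 23 of 23 alternative fits, 1 of which had a single uvr8-6 library under UV-B. That for BBX24 lay near the threshold and was lost in 12 of them. It ended without wild-type white-light replicate 1 (adjusted p = 0.0502), 2 (0.0922) or 3 (0.0666) or wild-type UV-B replicate 2 (0.0836) or 3 (0.113). It also ended without uvr8-6 white-light replicate 1 (0.121) or 3 (0.122) or uvr8-6 UV-B replicate 1 (0.0991) or 3 (0.115). BBX18 was called without uvr8-6 white-light replicate 2 (edgeR, adjusted p = 0.0333), in which it stood at 4.22 CPM. Over single left-out libraries its difference ranged from -1.09 to -0.60, and leaving out any other library gave no call.

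Under UV-B the genotypes were then compared directly, in a contrast that shares its UV-B libraries with the responses above. EdgeR called 6 of 7 members, 5 lower and 1 higher in uvr8-6, where 23.5% of all tested genes were called, 14.4% lower and 9.18% higher. BBX25 differed by -1.13 ± 0.10 on the log2 scale (adjusted p = 1.56e-06), BBX22 by -1.17 ± 0.15 (adjusted p = 7.7e-05), BBX24 by -1.09 ± 0.19 (adjusted p = 0.000984) and BBX18 by -1.04 ± 0.23 (adjusted p = 0.00471). For these 4 genes the fitted level in uvr8-6 was 0.443 to 0.486 of that in wild type, and no library crossed over. Among these UV-B libraries 2 of uvr8-6 and 1 of wild type had high FRO5. BBX18, BBX22 and BBX24 were lower in such libraries of both groups. The part of this imbalance in the differences was not tested. Over all alternative fits the difference ranged from -1.18 to -0.68 for BBX18 and from -1.19 to -0.79 for BBX24. It was -1.25 to -1.03 for BBX22 and -1.17 to -1.03 for BBX25. The libraries of 6 members did not overlap between the genotypes, as was so for 43.2% of all tested genes.

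BBX19 and BBX21 were called with smaller differences under UV-B. BBX19 had 9.84, 13.1 and 9.03 CPM in uvr8-6 and 14.8, 17.9 and 14.8 CPM in wild type, a log2 difference of -0.57 ± 0.15 (adjusted p = 0.0133). That call ended without wild-type replicate 2 (0.0625) or uvr8-6 replicate 1 (0.0546) or 3 (0.0773). BBX21 was higher in uvr8-6, with 98.1, 128.7 and 107.1 CPM against 78.3, 87.9 and 81.2 CPM in wild type (0.43 ± 0.14, adjusted p = 0.0321). It lost its call without wild-type replicate 1 (0.0982) or 3 (0.0925) or uvr8-6 replicate 2 (0.103) or 3 (0.0556). BBX20 overlapped between the genotypes, at 7.85 ± 3.14 CPM in uvr8-6 and 9.41 ± 2.45 CPM in wild type (SD, n = 3 each).

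Tissue markers differed between the genotypes under UV-B as well. The root markers summed to 237.5 to 338.3 CPM in uvr8-6 and 101 to 202 CPM in wild type, with no overlap, and 3 of 4 were called higher in uvr8-6, PIN2 (1.06 ± 0.32), COBL9 (0.67 ± 0.23) and TIP2;3 (1.22 ± 0.29). The cotyledon markers summed to 21010 to 37870 CPM in uvr8-6 and 33530 to 49620 CPM in wild type, which overlapped, and RCA (-1.13 ± 0.22) and LHCB2.1 (-0.81 ± 0.23) were called lower in uvr8-6. For the difference of responses 0 of 4 root and 0 of 4 cotyledon markers were called by edgeR, the nearest being RCA (-0.92 ± 0.30, adjusted p = 0.0873) and TIP2;3 (1.15 ± 0.40, adjusted p = 0.109). Their part in the B-box values was not tested.

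The 4 seed storage markers summed to 0.70 to 1.55 CPM in wild type under UV-B and 2.57 to 52.1 CPM in uvr8-6. Of the 3 tested, 2 were called higher in uvr8-6, and the libraries of all 3 did not overlap. In uvr8-6 UV-B replicate 2 the 4 seed storage markers summed to 52.1 CPM, against at most 2.78 CPM in the other 2 libraries of that group. The same library had the highest BBX18, BBX19, BBX21, BBX22 and BBX24 and the lowest BBX20 of its group. It was also the library of that group without high FRO5, at 0.21 CPM against 28.4 and 30.0 CPM in replicates 1 and 3. Within this group the seed transcripts and the FRO5 difference cannot be told apart. What either has to do with these levels was not tested.

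In white light, where no UV-B had been given, edgeR called 0 of 7 members between uvr8-6 and wild type, where 0.0144% of all tested genes were called. DESeq2 and limma-voom also made 0 calls, and 1 member had p under 0.05 before adjustment, against 1.99% of all genes. That gene was BBX25, with 65.4, 49.9 and 67.0 CPM in uvr8-6 and 71.7, 69.2 and 70.2 CPM in wild type. The libraries did not overlap, as was so for 6.67% of all tested genes, and the log2 difference was -0.21 ± 0.10 (adjusted p = 1). The other 6 overlapped, with log2 differences between -0.22 and 0.30.

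The pif4-101 pif5-1 double mutant asked whether loss of these growth-promoting factors shifts the same genes in white light. EdgeR called 0 of 7 members, where 5.26% of all tested genes were called. DESeq2 called 1 of 7, where it called 1798 of all 20833 tested genes, and limma-voom called 0. Before adjustment 2 members had p under 0.05, against 20.2% of all genes. BBX25 had 87.7, 83.3 and 84.9 CPM in pif4-101 pif5-1 and 71.7, 69.2 and 70.2 CPM in wild type. The groups did not overlap, as was so for 21.0% of all tested genes, and the log2 difference was 0.28 ± 0.10 (edgeR, adjusted p = 0.113). DESeq2 called it at a log2 difference of 0.28 (adjusted p = 0.0485).

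BBX21 was the other gene with a low unadjusted p in pif4-101 pif5-1. It had 74.3, 115.7 and 97.5 CPM in the double mutant and 122.8, 111.0 and 126.7 CPM in wild type. Replicate 2 of the double mutant overlapped the wild-type range, and the log2 difference was -0.33 ± 0.14 (adjusted p = 0.189). Without that library it was -0.48 and was called (edgeR, adjusted p = 0.0425). Over single left-out libraries the BBX21 difference ranged from -0.48 to -0.17, and leaving out any other library gave no call. BBX18, BBX19, BBX22 and BBX24 had values between 0.05 and 0.38, and BBX20 one of -0.01 ± 0.38. The cotyledon markers summed to 49070 to 60990 CPM in pif4-101 pif5-1 and 27630 to 37950 CPM in wild type, with no overlap in the sum or in any of the 4 genes, though edgeR called none of the 4 (log2 differences 0.46 to 0.84). Their part in the BBX25 and BBX21 values was not tested.

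Set in order, wild type under UV-B was the highest group for 6 members and the lowest for BBX21. For BBX18, BBX19, BBX22, BBX24 and BBX25 the next group did not overlap with it, and that group was uvr8-6 under UV-B for BBX22 and pif4-101 pif5-1 for the other 4. Below it the neighbouring groups of BBX18, BBX19, BBX22 and BBX24 overlapped. BBX25 alone kept separate ranges, at 141.4 ± 0.58 CPM in wild type under UV-B, 85.3 ± 2.2 in pif4-101 pif5-1 and 70.4 ± 1.2 in wild type in white light. Below these stood uvr8-6 at 64.6 ± 3.8 CPM under UV-B and 60.7 ± 9.5 in white light, which overlapped each other. The step from pif4-101 pif5-1 to wild type in white light was not called by edgeR (adjusted p = 0.113). Wild type in white light (lowest 69.2 CPM) lay close above uvr8-6 under UV-B (highest 68.6 CPM), and that pair was not tested. For BBX20 and BBX21 no pair of neighbours was separate. How often ranked neighbouring groups are separate over all tested genes was not counted, so these gaps only describe the members.

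Per exon length the members differed widely in level. In wild type under UV-B, BBX24 stood at 234.8 ± 32.0 CPM per kb of exon (SD, n = 3), BBX25 at 111.5 ± 0.46, BBX21 at 52.5 ± 3.1 and BBX22 at 43.2 ± 6.0. BBX18 (14.7 ± 2.7), BBX19 (8.75 ± 0.98) and BBX20 (6.62 ± 1.72) were far lower on that scale. In wild type in white light BBX24 led again at 140.4 ± 30.6 CPM per kb, with BBX21 at 76.5 ± 5.2, BBX25 at 55.5 ± 0.96 and BBX22 at 14.1 ± 3.2. BBX21 thus stood above BBX25 in white light and below it under UV-B.

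Summed over the 7 genes, the level was 270.2 ± 27.7 CPM per kb in uvr8-6 and 472 ± 37.9 CPM per kb in wild type under UV-B. It was 310.0 ± 25.7 CPM per kb in pif4-101 pif5-1, 285.5 ± 37.2 in uvr8-6 and 304.3 ± 38.2 in wild type in white light. BBX21 made up 11.2% ± 0.64 of that sum in wild type under UV-B and 25.3% ± 1.7 in wild type in white light. In uvr8-6 its share was 26.2% ± 1.4 under UV-B and 26.8% ± 4.1 in white light. BBX24 made up 49.6% ± 3.1 in wild type under UV-B and 45.8% ± 4.7 in white light. The share of BBX25 was 23.7% ± 2.1 under UV-B and 18.4% ± 2.2 in white light, and that of BBX22 was 9.15% ± 0.96 under UV-B and 4.603% ± 0.546 in white light.

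**Figure D3:**
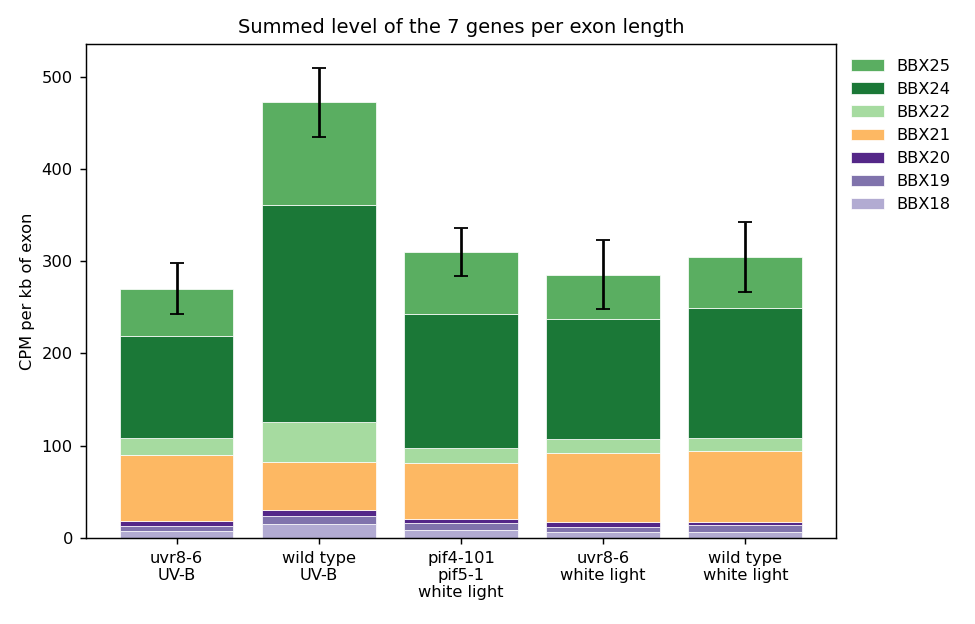
Mean CPM per kb of exon of the 7 genes stacked for each group, with the SD of the sum over 3 libraries. Wild type under UV-B reaches 472, and the other 4 groups lie between 270.2 and 310.0. BBX24 forms the largest part of every bar, and the BBX21 part is smallest in wild type under UV-B.

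BBX20 varied widely within groups, with a coefficient of variation of 40% in uvr8-6 and 26.0% in wild type under UV-B, and of 50.8% in uvr8-6 and 36.1% in wild type in white light. In pif4-101 pif5-1 it was 21.4%, close to the 21.6% of BBX21. Within the other 4 groups its highest libraries were those with high FRO5. In uvr8-6 it had 9.26 and 10.03 CPM in UV-B replicates 1 and 3 against 4.25 CPM in replicate 2, and 11.2 CPM in white-light replicate 2 against 5.09 and 4.85 CPM. In 4 of 4 groups that hold such libraries BBX20 was higher in them than in the rest, and BBX18, BBX22 and BBX24 were lower in 4 of 4. Of all tested genes 7.28% were higher in them in every one of these groups and 8.05% lower. BBX19, BBX21 and BBX25 did not keep 1 direction, with BBX19 above the rest in 1 group and below in 1, BBX21 above in 1 and below in 3, and BBX25 below in 2. HY5 was higher and PIF4 lower in those libraries in 4 of 4 groups. These libraries were singled out after the values were seen.

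**Figure D4:**
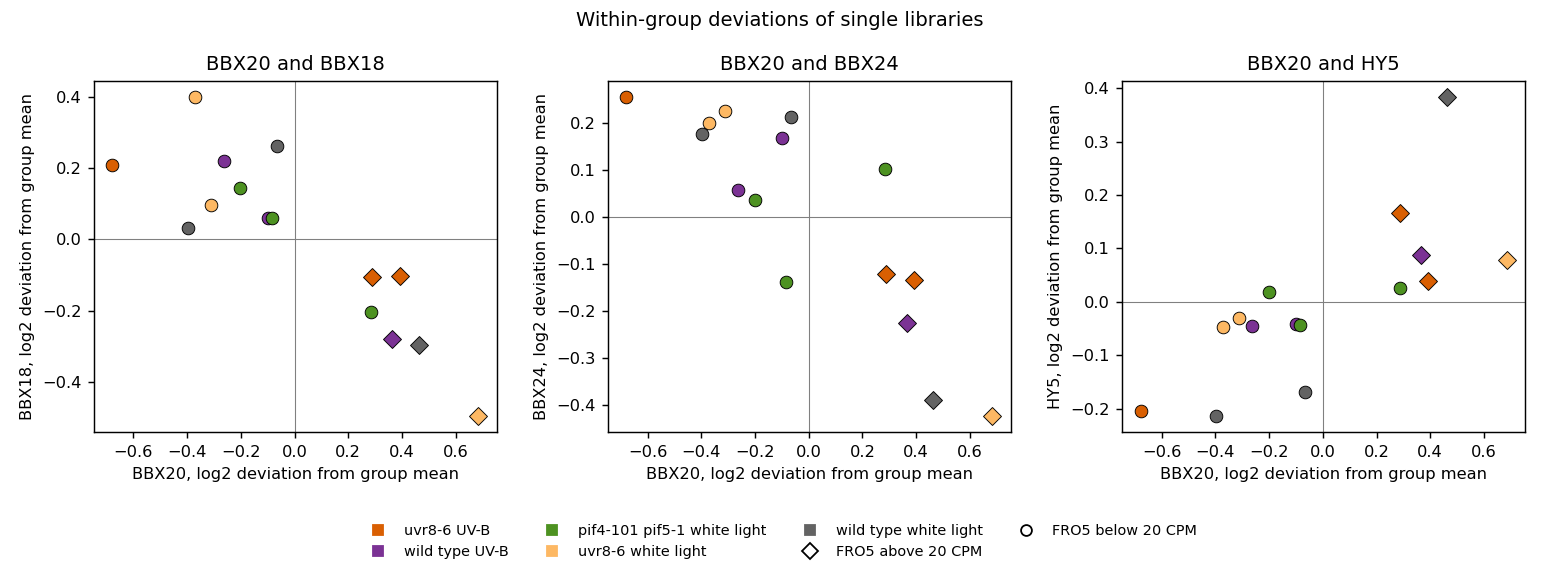
Deviation of each of the 15 libraries from its group mean on the log2(CPM + 1) scale, for BBX20 on the horizontal axis and BBX18, BBX24 or HY5 on the vertical axis. Diamonds are the 5 libraries with FRO5 above 20 CPM, which all lie on the side of high BBX20, low BBX18 and BBX24 and high HY5.

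An alternative chosen after seeing the data left these 5 libraries out. In wild type under UV-B the log2 fold change of BBX20 was then 0.80, against 0.72 with all libraries. That of BBX19 was 0.53, against 0.33. With 1 surrogate variable in the edgeR fit of all libraries BBX20 was called at 0.94 in wild type (adjusted p = 0.00126). Its response then differed in uvr8-6 by -1.02 (adjusted p = 0.0234), and BBX20 was lower in uvr8-6 than in wild type under UV-B by -0.91 (adjusted p = 0.00400). That variable was estimated from these same libraries, with values of 0.19 to 0.42 in the 5 with high FRO5 and at most 0.094 in the rest. These BBX20 calls are thus no independent check. With no surrogate variable the BBX20 difference of responses was -0.57, and without uvr8-6 white-light replicate 2 it was -0.030 (adjusted p = 0.986). Leaving out the 5 libraries keeps 1 uvr8-6 library under UV-B, replicate 2, which holds the seed transcripts, and its spread is then assumed to be that of the other groups. Comparisons with that group therefore rest on a lone library, and the calls in them (3 members for the difference of responses and 4 between the genotypes under UV-B) are no check of the values above.

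The other B-box genes were taken as a list, of which 21 of 25 were tested. In wild type under UV-B 7 rose and 4 fell, where 16.1% of all tested genes rose and 11.3% fell. The median log2 fold change of the list was 0.23. Those with the largest changes were BBX32 (3.50 ± 0.39), BBX29 (1.83 ± 0.47) and BBX11 (1.74 ± 0.15), which rose, and BBX17 (-1.65 ± 0.32), which fell. By structural group 4 of 6 tested single B-box genes of group V rose and 1 fell, against 2 and 0 of 6 in group I, 1 and 2 of 5 in group II and 0 and 1 of 4 in group III. In uvr8-6 BBX11 rose, with 18.1, 26.8 and 18.5 CPM under UV-B and 10.6, 12.3 and 11.4 CPM in white light (0.89 ± 0.15, adjusted p = 0.00867), and 20 were not called. The difference of responses was called for 3 of 21, BBX32 (-2.45 ± 0.56), BBX31 (-1.71 ± 0.47) and BBX11 (-0.85 ± 0.20). Of all tested genes 1.12% were called in uvr8-6 and 6.60% for the difference of responses. Whether group IV differs from the other B-box genes was not tested.

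**Figure D5:**
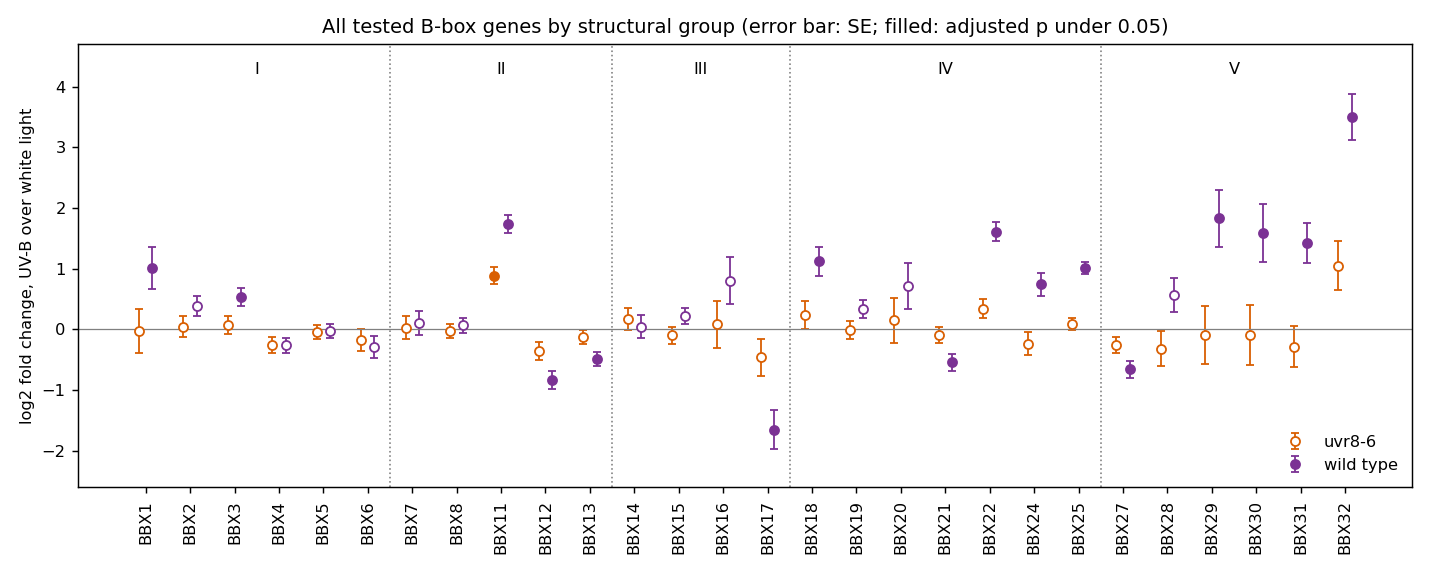
Log2 fold change of UV-B over white light for all 28 tested B-box genes in order of their number, with dotted lines between the structural groups I to V, in uvr8-6 (left point of each pair) and wild type (right point). Error bars are standard errors, and filled points were called. BBX11 is the called gene of uvr8-6, and BBX32 has the highest wild-type value, 3.50.

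The regulators that B-box proteins work with were also followed as a list of 18. In wild type under UV-B 11 rose and 1 fell, where 16.1% of all tested genes rose and 11.3% fell. The median log2 fold change of the 18 was 0.66. RUP2 (3.20 ± 0.20) and RUP1 (1.97 ± 0.11), which return UVR8 to its resting form, HY5 (1.99 ± 0.14) and its homologue HYH (1.65 ± 0.24) had the largest changes, and PIF3 (-0.83 ± 0.17) fell. COP1 stood at 76.7 ± 2.4 CPM under UV-B and 42.9 ± 1.7 CPM in white light (SD, n = 3 each), and all 4 SPA genes rose, between 0.44 ± 0.08 for SPA2 and 1.39 ± 0.09 for SPA4. COP1, the SPA genes and HY5 thus rose in the same comparison as BBX22, BBX24 and BBX25. The difference of responses was called for 11 of the 18, where 6.60% of all tested genes were called. Of these 11, 10 were lower and PIF3 higher in uvr8-6, with HY5 at -1.92 ± 0.20 and COP1 at -0.64 ± 0.11. In uvr8-6 edgeR, DESeq2 and limma-voom each called 0 of 18, and 8 had p under 0.05 before adjustment. Over all tested genes edgeR called 1.12% in that comparison, and 13.1% had p under 0.05 before adjustment.

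The genes most like each member over the 15 libraries were found by Pearson's r of log2(CPM + 1), which reflects the shared groups and libraries and is given as a description. For BBX25 they were ZTL, a blue light receptor gene of the clock (r = 0.97), SIGE, a plastid sigma factor gene (0.97), and NCS1 (0.97). SIGE stood at 34.5 CPM on average in uvr8-6 and 186.0 CPM in wild type under UV-B, and at 25.9 CPM in uvr8-6 and 31.6 CPM in wild type in white light. For BBX19 the list held AT5G46780 (0.90) and the morning clock genes CCA1 (0.89) and RVE8 (0.88). BBX22 was closest to CYP89A6 (0.98), CPUORF47 (0.97) and NUDT2 (0.97), and BBX24 to AL4 (0.96), ALDH11A3 (0.95) and AT3G13061 (0.95).

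The remaining members had other neighbours. BBX18 was closest to MBD11 (0.96), AT3G53830 (0.95) and AT5G42670 (0.95), and BBX21 to AT2G44500 (0.97), TET3 (0.96) and AT4G33150 (0.96). The 3 genes nearest to BBX21 had, like it, their lowest mean in wild type under UV-B, which their choice by r over these same libraries favours. BBX20 was closest to ATP5, a subunit gene of the mitochondrial ATP synthase (0.93), MLP423 (0.90) and TPI, a triose phosphate isomerase gene (0.90). No gene was named for 2 members.

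HY5 binds DNA at elements with an ACGT core, so the 300 bases before the annotated start of each member were searched. Both strands were read. The motif CACGTG was found in 0 of 7 windows and in 7.09% of 27443 promoters of protein-coding genes. The related motif AACGTG was found in 0 of 7 windows and 8.71% of promoters. Of the same kind, GACGTG was found in 1 of 7 windows and 6.58% of promoters. The shared core ACGT, which lies inside each of the longer motifs, was found in 3 of 7 windows and 49.0% of promoters. A match is a description of these letters and an absent match says nothing of binding elsewhere. Shown are BBX24 (chr1:1829984-1830283, minus strand), which rose and has its core 100 bases before the start, and BBX19 (chr4:18160603-18160902, plus strand), the member with GACGTG, 148 bases before the start, with the motifs in capitals.
BBX24: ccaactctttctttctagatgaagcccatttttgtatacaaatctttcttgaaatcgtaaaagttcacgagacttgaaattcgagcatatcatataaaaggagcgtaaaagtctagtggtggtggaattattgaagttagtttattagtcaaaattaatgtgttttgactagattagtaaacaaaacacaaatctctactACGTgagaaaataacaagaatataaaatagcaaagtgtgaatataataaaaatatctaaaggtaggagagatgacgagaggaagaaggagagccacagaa
BBX19: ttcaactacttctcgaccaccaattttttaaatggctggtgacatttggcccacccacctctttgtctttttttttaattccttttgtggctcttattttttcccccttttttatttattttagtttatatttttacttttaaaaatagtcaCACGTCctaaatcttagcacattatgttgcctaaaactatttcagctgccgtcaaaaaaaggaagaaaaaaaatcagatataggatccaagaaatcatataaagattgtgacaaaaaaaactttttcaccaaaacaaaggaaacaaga

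The windows of BBX22 and BBX25 overlap exons of neighbouring genes by 250 and 295 bases and are not shown. BBX20 has its ACGT core 158 bases before the start, and the windows of BBX18 and BBX21 hold none of the 4 motifs. Of the members that rose, BBX24 has an ACGT core in this window, and BBX18, BBX22 and BBX25 have none. BBX21, which fell, has none either. For BBX22 and BBX25 most of the window is exon of a neighbouring gene, which limits what it says of their promoters.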

How the data were processed

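Members and gene lists were chosen with earlier results of these data known. The count table holds raw read counts per gene and library as deposited by the authors. Tools listed in the submitters' processing notes, without roles, are edgeR 3.22.3, HTSeq 0.9.1, STAR 2.5.3a and FastQC 0.11.5, with the build TAIR10. Whether counting used strand is not given in the sources used here, and where genes overlap their reads may be mixed. A deposited normalized table was not used. Libraries were stranded mRNA from whole seedlings, read as 100 bp single ends, per the labels' protocols.

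Genes were filtered with filterByExpr (20833 kept) and scaled by TMM (factors 0.863 to 1.11). All 15 libraries entered 1 edgeR 4.0.16 model (R 4.3.3) of the 5 groups, with 10 residual degrees of freedom, tested by the quasi-likelihood F test, two-sided, with Benjamini-Hochberg adjustment over all genes and calls under 0.05. SE come from the fit. P-values measure the spread between these plates. Depth was 19271180 to 30406689 reads, which limits the precision for low genes. No pair of libraries of a group agreed within sampling noise (chi-square per degree of freedom 7.23 to 48.6). The procedure was tested on simulated counts.

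Members, other B-box genes, regulators and flavonoid genes were named by rule, at most 4 called genes per list and comparison, with the 3 nearest genes per member by Pearson's r. Genes outside it, such as PIF3, COP1, the SPA genes and FRO5, were chosen after their values were seen or as design checks. Exon lengths, coordinates and sequences are RefSeq's on TAIR10.1. Alternatives were upper quartile and DESeq2 scaling, other filters, DESeq2 1.42.0, limma-voom (3.58.1), a replicate block, 1 surrogate variable (sva 3.50.0), the compared libraries alone and left-out libraries. Deviations of same-numbered libraries correlated at 0.44, 0.68 and 0.47 between the white-light libraries of uvr8-6 and wild type, so these may be paired. In no other comparison did all 3 exceed 0.1. Deviations within a group cancel out, so the 3 values are not independent. Replicate 2 had high FRO5 in both groups, 78.6 CPM in uvr8-6 and 58.4 CPM in wild type, and its part in these correlations was not tested.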

Additional observations from a re-analysis of the deposited data

Results flagged for a closer look

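The UV-B response differed between uvr8-6 and wild type by the test of that difference for 3 members. BBX22 responded less in uvr8-6, by -1.27 on the log2 scale, and stood at 33.2 ± 1.7 CPM in uvr8-6 and 75.0 ± 10.5 CPM in wild type under UV-B. BBX24 differed by -0.97, with 163.2 ± 26.1 CPM in uvr8-6 and 346.3 ± 47.2 CPM in wild type under UV-B, a call that was lost in 12 of 23 alternative fits. BBX25 differed by -0.92, with 64.6 ± 3.8 CPM in uvr8-6 and 141.4 ± 0.58 CPM in wild type under UV-B (SD, n = 3 each).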

How the results depend on the processing

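Of 42 log2 fold changes of members 14 were called, and none of these changed direction in any alternative. Over 749 recomputed values 679 kept direction and side of the threshold, 21 lost and 13 gained a call, and 36 of uncalled genes changed sign. Member counts were 5 to 7 for wild type under UV-B, 0 in uvr8-6, 2 to 4 for the difference of responses, 4 to 7 between the genotypes under UV-B and 0 between them in white light. For pif4-101 pif5-1 the count was 1 with DESeq2, with 1 surrogate variable and with white-light replicate 2 of wild type and of uvr8-6 both left out, and 0 to 1 over single left-out libraries. Upper quartile scaling moved the median of all genes in wild type under UV-B to -0.11, and the 4 members that rose stayed above it (0.64 to 1.51). With the replicate block the BBX24 difference of responses was -0.96 (adjusted p = 0.0523), and the block changed no other call of a member. BBX24 also missed the threshold with upper quartile scaling (0.0664) and with the compared libraries alone (0.0597).

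Sign changes by setting were as follows, and the cause was not tested. In uvr8-6 under UV-B, BBX19 had 0.012 with at least 1 CPM in 3 libraries, 0.0037 with 1 surrogate variable, 0.0067 without both white-light replicates 2 and 0.29 without the 5 libraries of high FRO5. BBX20 had -0.081 with 1 surrogate variable. Without the 5 libraries BBX20 had -0.22, BBX21 0.13 and BBX25 -0.034, and BBX25 had -0.013 without both replicates 2. For uvr8-6 over wild type in white light BBX22 had -0.044 in both of these settings. In pif4-101 pif5-1 BBX20 had 0.0096 with at least 1 CPM in 3 libraries, 4e-04 with the replicate block, 0.066 with limma-voom and 0.33 in both settings, where BBX24 had -0.096.

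Over single left-out libraries the ranges were, in uvr8-6 under UV-B, -0.16 to 0.099 for BBX19, -0.074 to 0.66 for BBX20 and -0.029 to 0.18 for BBX25. Between the genotypes under UV-B, BBX20 ranged from -0.47 to 0.070. Between them in white light the ranges were -0.42 to 0.073 for BBX18, -0.22 to 0.62 for BBX20, -0.075 to 0.0076 for BBX21, -0.080 to 0.22 for BBX22 and -0.28 to 0.062 for BBX24. In pif4-101 pif5-1 they were -0.23 to 0.32 for BBX20 and -0.11 to 0.15 for BBX24.

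The number of all genes called in wild type under UV-B was 5700. It was 4218 to 5223 over single left-out libraries and at most 6691 over all alternatives. The number called in uvr8-6, 233, ranged from 43 without white-light replicate 1 to 640 with DESeq2. It was 1375 for the difference of responses (877 to 2190), 1095 in pif4-101 pif5-1 (278 to 1804), 4903 between the genotypes under UV-B (3053 to 5431) and 3 in white light (3 to 6).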

Other observations

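Among 11 flavonoid and photoprotection genes, many of them targets of HY5, 9 rose in wild type under UV-B, where 16.1% of all tested genes rose. Their median log2 fold change over all 11 was 4.76, against 0.74 for the 7 B-box members. ELIP1 (8.90 ± 0.35), CHS (6.69 ± 0.67), FLS1 (6.55 ± 0.64) and ELIP2 (6.36 ± 0.39) changed most. The difference of responses was called lower in uvr8-6 for 8 of the 11, as for 4.88% of all tested genes. In uvr8-6 edgeR called 0, DESeq2 2 and limma-voom 1, while 6 had p under 0.05 before adjustment in edgeR. Of all tested genes edgeR called 1.12% in uvr8-6, and 13.1% had p under 0.05 before adjustment.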
